A study of Mus musculus with 2 samples.

Results

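The genes described here are 10 targets of FoxO transcription factors that act on growth and stress: Cdkn1a, Cdkn1b, Ccng2, Sesn1, Sesn3, Bnip3, Pdk4, Txnip, Cited2 and Bcl6. They were taken as a named set, and all probe sets whose platform annotation gave 1 of these symbols alone were read, which gave 109 of the 318760 probe sets with 1 symbol and 10 of 22296 symbols. AgRP neurons, which make agouti-related peptide in the hypothalamus and promote feeding, were collected by FACS from FoxO1 KO mice and from FoxO1 heterozygous KO mice, which stand as the control. The mice were age- and sex-matched littermates of mixed genetic background, and the heterozygous mice also carry the FoxO1 deletion, on 1 of their alleles as the label reads. The Cre driver or other means of the deletion, and the number of mice behind each sample, are not stated in the sources used here. Each genotype was measured on 1 array, so genotype, sort and any other difference between the samples cannot be told apart, and every difference below is a value of 2 arrays with no replicate and no test.

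FoxO proteins are transcription factors that insulin, acting through PI3K and AKT, keeps phosphorylated and out of the nucleus. When insulin is low they enter the nucleus and switch on genes that halt the cell cycle, restrain growth signalling through mTORC1, move mitochondria from glucose towards fat as fuel, and protect against oxidative stress. In AgRP neurons FoxO1 is known as an activator of Agrp transcription in the fasted state. Most of the 10 genes have other regulators too: Cdkn1a and Sesn1 are classical p53 targets, Bnip3 and Cited2 respond to hypoxia, Pdk4 to fatty acids through PPAR receptors, and Txnip to glucose.

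The windows upstream of the genes' starts were read for sequence elements of these regulators, since the 10 genes are grouped by a shared factor. RefSeq gave 13 windows for the 10 genes (assembly GRCm38.p6), and the 250 bases before each start were searched on both strands. The FoxO binding element GTAAACA stood in 1 of the 13 windows, that of Txnip, and in 3.17% of all 32851 windows of the same length. The insulin response sequence CAAAACA stood in 1, that of Ccng2, and in 5.56% of all windows. The E-box CACGTG, a palindrome bound by basic helix-loop-helix factors, stood in 3 (Bcl6, Bnip3 and Cited2) and in 6.02% of all windows. A p53 response element of abutting half-sites, with at most 1 mismatch among its 20 bases, stood in 1, at the upstream start of Cdkn1a, and in 0.0761% of all windows. None of the elements overlapped another in these windows. The 4 windows below show 1 example of each element, in capitals, and are given 5′ to 3′ on the strand of the gene. They lie at chr3:96557707-96557956 on the plus strand (Txnip), chr5:93267323-93267572 on the plus strand (Ccng2), chr17:29090729-29090978 on the plus strand (Cdkn1a) and chr7:138909507-138909756 on the minus strand (Bnip3). A match is a description of the letters and not a measured binding site.
Txnip: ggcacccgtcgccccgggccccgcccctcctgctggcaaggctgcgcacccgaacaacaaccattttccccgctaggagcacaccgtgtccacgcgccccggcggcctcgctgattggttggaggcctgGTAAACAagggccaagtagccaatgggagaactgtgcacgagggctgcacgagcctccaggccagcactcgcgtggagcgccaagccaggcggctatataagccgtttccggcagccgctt
Ccng2: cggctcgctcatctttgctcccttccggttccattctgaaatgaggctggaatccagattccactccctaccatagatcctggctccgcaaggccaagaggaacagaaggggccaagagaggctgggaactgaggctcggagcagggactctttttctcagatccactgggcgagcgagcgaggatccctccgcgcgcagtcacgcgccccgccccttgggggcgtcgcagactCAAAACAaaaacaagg
Cdkn1a: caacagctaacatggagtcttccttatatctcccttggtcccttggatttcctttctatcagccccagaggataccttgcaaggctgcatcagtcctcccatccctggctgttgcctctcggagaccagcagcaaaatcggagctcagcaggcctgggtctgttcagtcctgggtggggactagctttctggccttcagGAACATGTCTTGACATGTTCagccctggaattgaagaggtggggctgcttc
Bnip3: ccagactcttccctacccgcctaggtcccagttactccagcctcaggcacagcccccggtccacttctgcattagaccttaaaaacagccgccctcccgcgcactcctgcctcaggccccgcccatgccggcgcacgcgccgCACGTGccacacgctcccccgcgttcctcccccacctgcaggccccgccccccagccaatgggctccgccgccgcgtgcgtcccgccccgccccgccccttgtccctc

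All values are on the log2 scale, as RMA gives them, and all differences are KO minus heterozygous KO. Probe sets whose mean of both arrays reached 5.86, the median of such means on the whole platform, were used, and 5.86 is called the floor below. A gene's level on an array is the median of its used probe sets there, its difference is the median of their differences, and the SD beside it describes how far those probe sets disagree, not the spread between mice. A call needed a gene difference of 1 or more in either direction, which is 2-fold, and needed that at least 75% of the gene's used probe sets went the same way. Of the 109 probe sets of the 10 genes, 90 were used, and each of the 10 genes had enough of them to be evaluated.

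Of the 10 genes, Cdkn1a and Bnip3 were called lower on the KO array and none was called higher. In these samples fewer cells of a type and less RNA per cell cannot be told apart, and markers of mature oligodendrocytes were lower on the same array (median -1.46 over 9 genes). The background among all 16639 evaluated genes was 1.12% called lower (186 genes) and 1.13% called higher (188 genes). With all differences centred on the median gene, that split was 127 lower and 270 higher, and the calls of the 10 genes were as before. Differences below 0 were found for 7 of the 10 genes, beside 65.2% of all evaluated genes, so a share of this size is near the background. For 2 of the 7, Sesn3 and Cited2, the level was nevertheless the higher one on the KO array, since the level and the difference are separate medians. The median over the 10 genes was -0.32, beside -0.11 over all evaluated genes. At least 75% of the used probe sets were lower for 4 of the genes (Cdkn1a, Cdkn1b, Bnip3 and Sesn1), beside 23.3% of all genes, and at least 75% were higher for none, beside 9.56% of all genes.

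Probe set by probe set, 55 of the 90 used probe sets were lower on the KO array, or 61.1%, beside 57.4% of the used probe sets of all genes. At least 2-fold lower were 19 of the 90, or 21.1%, beside 11.0% of the 215976 used probe sets of all genes. A further 10, or 11.1%, were at least 2-fold higher, beside 9.24%. Probe sets of 1 gene share its transcript and are not replicates. Of the 19 lower ones, 5 were in Bnip3, 4 in Cdkn1a, 3 in Bcl6, 2 each in Txnip, Ccng2 and Sesn1, and 1 in Cited2. Of the 10 higher ones, 4 lay below the floor on the heterozygous array, and of the 19 lower ones 5 lay below it on the KO array, so these passed the floor through 1 array. The SD over probe sets was above the median SD of all genes, 0.68, for 7 of the 10 genes.

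**Figure D1:**
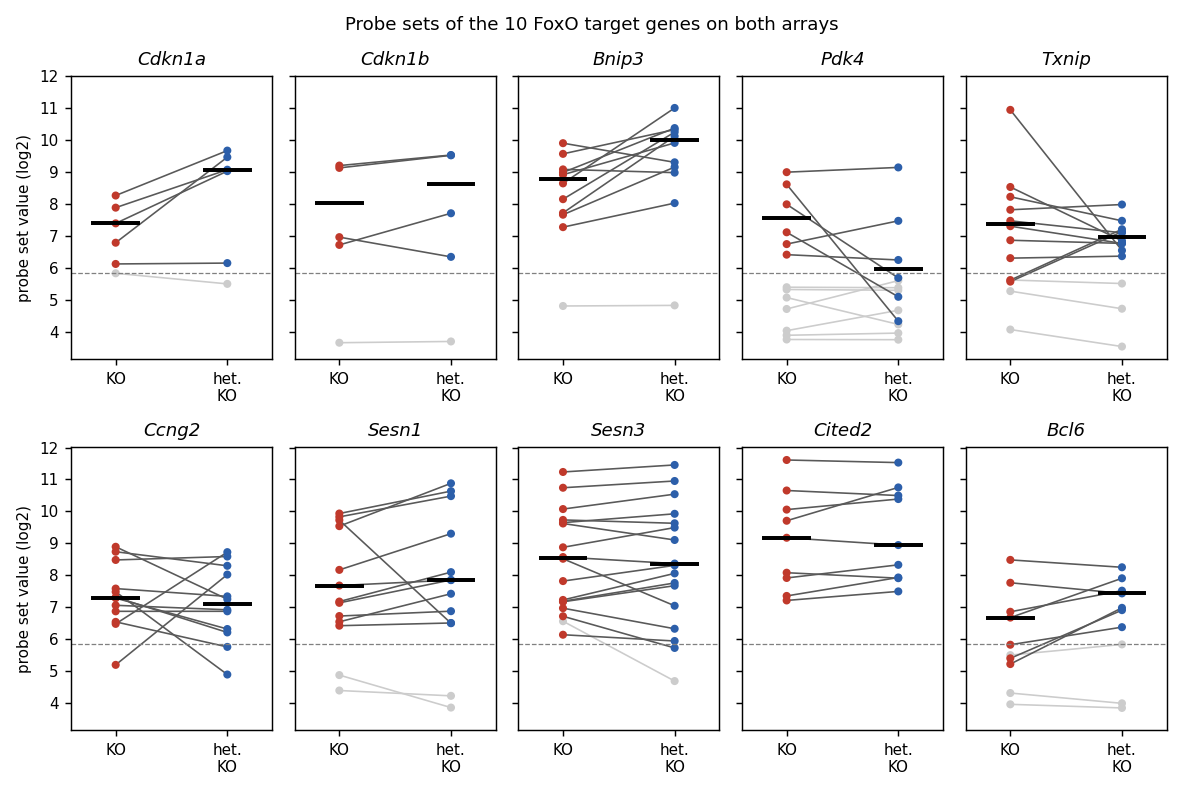
Values of every probe set of the 10 genes (log2, vertical axis) on the KO array (left of each panel) and the heterozygous KO array (right), joined by a line for each probe set. Black bars are gene levels, the dashed line is the floor at 5.86, and pale grey probe sets were not used; most lines of Cdkn1a and Bnip3 climb towards the heterozygous array, while those of Txnip, Ccng2 and Pdk4 cross.

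Cdkn1a encodes p21, an inhibitor of cyclin-dependent kinases that holds cells out of the cycle. It had the lowest difference of the 10 genes, with a level of 7.40 on the KO array against 9.08 on the heterozygous array. Its 5 used probe sets, in order of brightness, stood at 6.13, 6.80, 7.40, 7.90 and 8.28 on the KO array, against 6.16, 9.48, 9.04, 9.08 and 9.68 on the heterozygous array. All 5 were lower on the KO array, the dimmest by almost nothing. The difference was -1.41 (SD 0.95), or 2.65-fold lower on the KO array (the inverse of the KO over heterozygous ratio of 0.378). Only 0.433% of evaluated genes had a difference as low. The largest gap was -2.68, and no used probe set lay below the floor on either array. Leaving out any 1 probe set left the difference between -1.52 and -1.30. Its only unused probe set had 5.84 on the KO array against 5.51 on the heterozygous array.

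Cdkn1b encodes p27, the related inhibitor that keeps differentiated cells in arrest and is among the best known FoxO targets. Its 4 used probe sets stood at 6.97, 6.73, 9.14 and 9.21 on the KO array, against 6.36, 7.72, 9.53 and 9.54 on the heterozygous array. The brighter pair differed little, by -0.39 and -0.33, and the dimmer pair went opposite ways, by 0.62 and -0.99. The gene difference was -0.36 (SD 0.66, 3 of 4 probe sets lower), and 17.7% of evaluated genes were as low, so Cdkn1b lay nearer to the run of genes than Cdkn1a did.

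Ccng2 encodes cyclin G2, an unusual cyclin that accompanies arrest rather than division. Its level was 7.30 on the KO array against 7.09 on the heterozygous array. The difference was 0.34 (SD 1.5), with 8 of 12 used probe sets higher. This small median covers probe sets that lay far apart in both directions. The lowest was at 5.20 on the KO array against 8.02 on the heterozygous array, a difference of -2.83, followed by one at 6.48 against 8.73, a difference of -2.25. The highest was at 7.48 on the KO array against 4.90 on the heterozygous array, a difference of 2.59, followed by one at 8.89 against 7.25, a difference of 1.64. Both of the most extreme probe sets lay below the floor on 1 array and were used because of the other, so their directions were fixed. The same held for the probe set at 6.54 on the KO array against 5.76 on the heterozygous array, which had to be higher. The 8 others stood at 6.54, 7.31, 7.29, 6.87, 7.06, 7.59, 8.74 and 8.48 on the KO array, against 5.76, 6.21, 6.32, 6.87, 6.92, 7.34, 8.30 and 8.59 on the heterozygous array. The exons that these probe sets read are not stated in the sources used here, and a difference between transcript forms was not tested.

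The sestrins sense amino acids and stress and restrain mTORC1, the kinase complex that drives growth. Sesn1 was lower on the KO array in 10 of 11 used probe sets, with a level of 7.68 on the KO array against 7.86 on the heterozygous array. Its difference was -0.70 (SD 1.24), and 3.83% of evaluated genes were as low. The 3 brightest probe sets stood at 9.93, 9.54 and 9.83 on the KO array, against 10.64, 10.88 and 10.48 on the heterozygous array. These bright probe sets all went the way of the gene. A further 2 lower ones stood at 8.17 and 7.18 on the KO array, against 9.30 and 8.10 on the heterozygous array. The other 5 lower ones stood at 7.68, 7.14, 6.55, 6.73 and 6.42 on the KO array, against 7.85, 7.86, 7.42, 6.88 and 6.51 on the heterozygous array. The exception was probe set 5606483, at 9.73 on the KO array against 6.50 on the heterozygous array, a difference of 3.22 that 0.573% of all used probe sets reached. Leaving out any 1 probe set kept the gene between -0.71 and -0.67, so the exception did not set its median, although it took the mean over probe sets to -0.32. Sesn1 was lower by 1.62-fold, short of the 2-fold rule.

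Sesn3, the sestrin best known as a FoxO target, showed little difference at its brightest probe sets. The 4 brightest stood at 11.23, 10.74, 10.07 and 9.65 on the KO array, against 11.45, 10.95, 10.54 and 9.93 on the heterozygous array. The 16 used probe sets had differences with a lowest of -0.83 and a highest of 1.47, with 9 lower and 7 higher. The gene level was 8.55 on the KO array against 8.34 on the heterozygous array, while the gene difference was -0.22 (SD 0.64), and 34.4% of evaluated genes were as low. The lowest of them stood at 7.23 on the KO array against 8.06 on the heterozygous array, and the highest at 8.52 against 7.05.

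Bnip3 encodes a receptor on the outer mitochondrial membrane that marks mitochondria for autophagy. Its level was 8.79 on the KO array against 10.03 on the heterozygous array. The 8 lower probe sets stood at 7.29, 7.67, 7.73, 8.16, 8.93, 9.00, 8.65 and 9.58 on the KO array, against 8.04, 9.17, 10.13, 10.26, 9.92, 10.39, 11.02 and 10.34 on the heterozygous array. These are bright probe sets, and none of the used ones lay below the floor on either array. The 2 that went the other way stood at 9.09 and 9.91 on the KO array, against 8.99 and 9.31 on the heterozygous array. The difference was -1.19 (SD 1.00), or 2.28-fold lower on the KO array, and 0.673% of evaluated genes were as low. Its largest gaps were -2.40, -2.36 and -2.10. With the probe set below the floor added (4.82 on the KO array against 4.84 on the heterozygous array) the difference was -0.99 and Bnip3 no longer passed the 2-fold rule, so its call rests on the floor.

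Pdk4 encodes a kinase that shuts pyruvate dehydrogenase and so spares glucose in fasting. It ran opposite to Cdkn1a and Bnip3, with a level of 7.56 on the KO array against 5.98 on the heterozygous array and a difference of 1.09 (SD 1.89). It was not called, because 4 of 6 used probe sets were higher, fewer than 75%. The 3 that made the difference stood at 8.62, 7.999 and 7.13 on the KO array, against 4.34, 5.70 and 5.11 on the heterozygous array. All 3 lay below the floor on the heterozygous array and were used because of their KO value, so they had to be higher. The 3 others stood at 9.01, 6.76 and 6.42 on the KO array, against 9.15, 7.48 and 6.26 on the heterozygous array. The brightest Pdk4 probe set over both arrays thus differed by only -0.15. Of 13 Pdk4 probe sets, 7 were below the floor, and with all 13 the difference was 0.02. Without its most deviating probe set it was 0.17.

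Txnip encodes an arrestin-fold protein that binds thioredoxin and slows glucose uptake. Its level was 7.40 on the KO array against 6.98 on the heterozygous array, and its difference was 0.24 (SD 1.71, 6 of 10 used probe sets higher). One probe set, 4306486, stood at 10.95 on the KO array against 6.56 on the heterozygous array, a difference of 4.40 that 0.122% of all used probe sets reached. It was the largest difference among the probe sets of the 10 genes. The 3 other probe sets with the highest means stood at 8.54, 8.24 and 7.83 on the KO array, against 6.86, 7.48 and 7.99 on the heterozygous array. In the other direction, a pair stood at 5.58 and 5.63 on the KO array, against 7.14 and 7.22 on the heterozygous array. Their differences were -1.56 and -1.59. The pair lay below the floor on the KO array and was used because of its heterozygous values, so it had to be lower. The 4 remaining stood at 7.48, 7.32, 6.88 and 6.32 on the KO array, against 7.11, 6.78, 6.78 and 6.38 on the heterozygous array. With the floor at the 75th percentile, 4 probe sets remained and Txnip was called higher, at 1.22. Of these 4, the 2 with the highest differences lay below that floor on the heterozygous array, at 6.56 and 6.86, and passed through their KO value, so they had to be higher. Without probe set 4306486 the difference was 0.10, so Txnip kept its sign while its size depended on which probe sets were read.

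**Figure D2:**
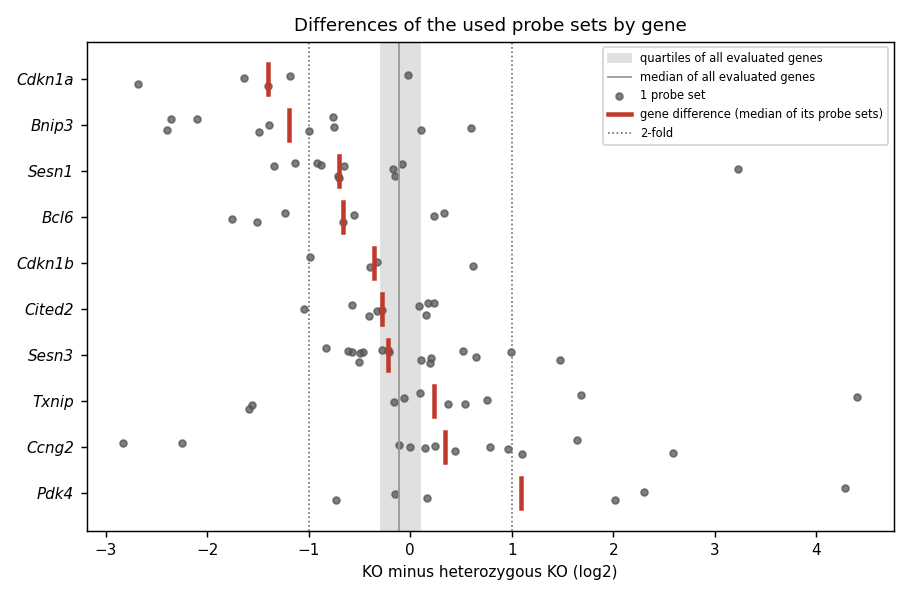
Difference of each used probe set (KO minus heterozygous KO, log2, horizontal axis) for the 10 genes, ordered by gene difference, which the red bar marks. The grey band holds the quartiles of all evaluated genes (-0.29 and 0.09) and dotted lines mark 2-fold; the bars of Cdkn1a at -1.41 and Bnip3 at -1.19 lie below the left line, and single probe sets of Sesn1, Txnip and Pdk4 lie above 3.

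Cited2 encodes a coactivator-binding protein that competes with the hypoxia factor HIF-1 for CBP and p300. Its 9 used probe sets had differences that lay close together. They stood at 7.21, 7.36, 8.08, 7.92, 9.18, 10.06, 9.71, 10.65 and 11.61 on the KO array, against 7.50, 7.93, 7.91, 8.33, 8.95, 10.39, 10.75, 10.50 and 11.53 on the heterozygous array. Its level was 9.18 on the KO array against 8.95 on the heterozygous array, while the difference was -0.28 (SD 0.43), with 5 probe sets lower and 4 higher. The SD was the lowest of the 10 genes, and 79.0% of evaluated genes had a larger one. The lowest probe set was at -1.04, the only Cited2 probe set past 2-fold.

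Bcl6 encodes a zinc finger repressor of transcription. Its level was 6.68 on the KO array against 7.44 on the heterozygous array, with a difference of -0.66 (SD 0.82) and 5 of 7 used probe sets lower. The lower ones stood at 5.22, 5.83, 5.40, 6.86 and 6.68 on the KO array, against 6.98, 6.38, 6.91, 7.52 and 7.91 on the heterozygous array. The first 3 of these lay below the floor on the KO array and were used because of their heterozygous value, so they had to be lower. The 2 brightest, at 7.77 and 8.48 on the KO array against 7.44 and 8.25 on the heterozygous array, went the other way. The 3 unused probe sets stood at 3.96, 4.32 and 5.50 on the KO array, against 3.85, 4.00 and 5.84 on the heterozygous array. With them added the Bcl6 difference was -0.44, and without them 4.47% of evaluated genes had a gene difference as low.

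**Figure D3:**
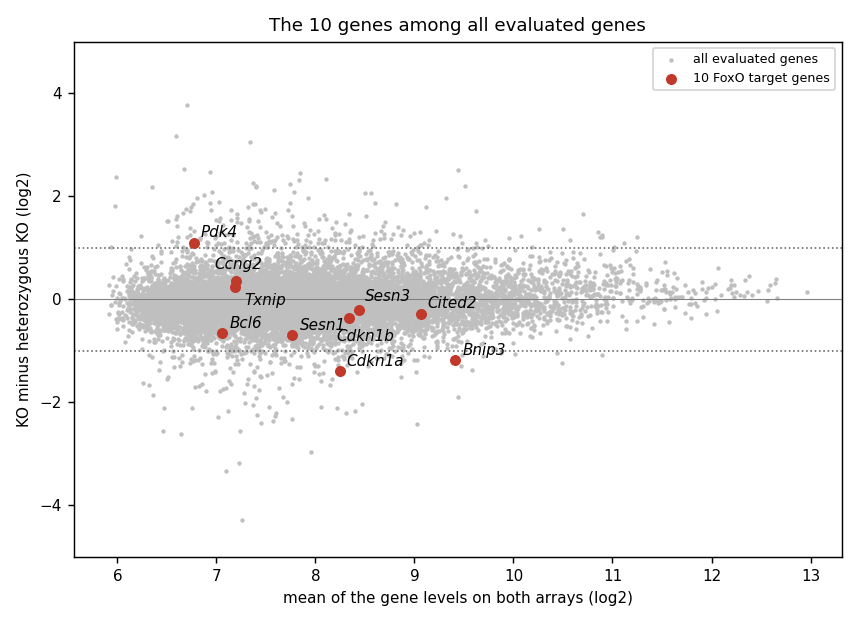
Gene difference (KO minus heterozygous KO, log2, vertical axis) against the mean of the gene's levels on both arrays (log2, horizontal axis) for all evaluated genes (grey) and the 10 FoxO target genes (red). Cdkn1a at -1.41 and Bnip3 at -1.19 lie at the lower edge of the cloud and Pdk4 at 1.09 near its upper edge, while Cited2, Sesn3, Cdkn1b, Txnip and Ccng2 lie inside it.

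Foxo1 itself was lower on the KO array in 8 of 8 used probe sets, with a difference of -0.48 (SD 0.53) and levels of 7.46 on the KO array against 7.98 on the heterozygous array. The ninth Foxo1 probe set, which was not used, went the other way, at 5.75 on the KO array against 4.79 on the heterozygous array. The brightest used Foxo1 probe set stood at 9.79 on the KO array against 11.08 on the heterozygous array, a difference of -1.29. The next brightest stood at 8.25 against 9.81, a difference of -1.56, so both were past 2-fold. The other used ones lay between -0.71 and -0.11. The gene did not pass the 2-fold rule, and it is not known which of its probe sets read the deleted part. All 4 genes of the FoxO family were below 0, with a median of -0.53, and the family ran from Foxo3 at -0.68 to Foxo6 at -0.39. As medians over probe sets, the gene differences of Cdkn1a and Bnip3 were larger in size than those of all 4 FoxO genes. That of Sesn1 at -0.70 was close to that of Foxo3, with no test of that order.

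The closest relatives of the 10 genes were set beside them to compare whole families. Of 14 relatives, 13 were evaluated, 11 of them below 0 beside 65.2% of all genes, with a median of -0.24, and none was called. Beside Cdkn1a at -1.41, its relative Cdkn1c, which encodes the kinase inhibitor p57, was at -0.27. Beside Bnip3 at -1.19, the related mitophagy receptor Bnip3l was at 0.24, with 5 of its 6 probe sets higher. Beside Pdk4 at 1.09, the other pyruvate dehydrogenase kinases Pdk1, Pdk2 and Pdk3 were at -0.39, -0.25 and -0.30. The Cdkn1a and Bnip3 relatives stood nearer to 0 than these genes did. That would hold for most genes, since only 0.433% and 0.673% of evaluated genes were as low as Cdkn1a and Bnip3. No such order can be read for Pdk4, which with all its probe sets stood at 0.02, nearer to 0 than the other 3 kinases. Sesn2 was at -0.22, level with Sesn3. Ccng1, a cyclin G that p53 induces, was at -0.56 with 6 of 7 probe sets lower, opposite in sign to Ccng2. Among arrestin-fold relatives of Txnip, Arrdc4 was at -0.32, Arrdc2 at -0.16 and Arrdc1 at -0.01. Cited1 was at 0.29, Cited4 at -0.24 and Bcl6b at -0.21.

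Other FoxO targets, 42 genes in 6 lists, were read beside the 10. Of 40 evaluated, 24 were below 0 and 16 above, with a median of -0.09 beside -0.11 over all genes. The lists mix targets that FoxO proteins activate, such as Agrp, with targets that they repress, such as Ccnd2. Their signs and medians therefore cannot be read as 1 direction of FoxO action. Only Gpr17 was called lower, at -2.10, beside 1.12% of all genes. It is the receptor named in the title of the series, so its call here is no independent result. Gpr17 is also among the oligodendrocyte precursor markers below. The metabolic and insulin signalling targets had a median of -0.19 over 9 genes, with Ppargc1a, the coactivator of mitochondrial biogenesis, lowest at -0.74 (12 of 12 probe sets lower) and Tsc22d3 highest at 0.35. The antioxidant and DNA damage targets had a median of -0.22 over 7 genes, with the DNA damage protein Ddb1 at -0.58 and the mitochondrial peroxidase Prdx3 at 0.43 (7 of 7 probe sets higher). The apoptosis targets had a median of -0.04 over 5 genes (Bbc3 -0.32, Tnfsf10 0.54). The autophagy and atrophy targets had a median of -0.07 over 7 genes, with the ubiquitin ligase Fbxo32 at -0.41 and the autophagosome protein Map1lc3b at 0.36 (12 of 14 probe sets higher). The cell cycle targets had a median of 0.13 over 7 genes, with Cdkn1c lowest at -0.27 and Ccnd2, a cyclin that FoxO proteins repress, highest at 0.39. The hypothalamic targets had a median of 0.14 over 5 genes, and Pomc was highest at 0.28.

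Genes of the other regulators that the 10 genes share were read next. Of 14 evaluated p53 targets, 8 were below 0, with a median of -0.19; Ei24, a p53-induced membrane protein, was called lower at -1.02 and Polk, a translesion DNA polymerase, higher at 1.13. Of 13 evaluated hypoxia response genes, 8 were below 0 and none was called, with a median of -0.13 and with the glucose transporter Slc2a1 at -0.61 and Ankrd37 at 0.71. Of 9 evaluated fasting and PPAR response genes, 6 were below 0, with a median of -0.12, and 1 was called. This was the fatty acid transporter Cd36 at 3.77, whose heterozygous level of 4.82 lay below the floor. Its used probe sets below the floor there passed through their KO value, so they had to be higher. The median over all evaluated genes was -0.11.

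**Figure D4:**
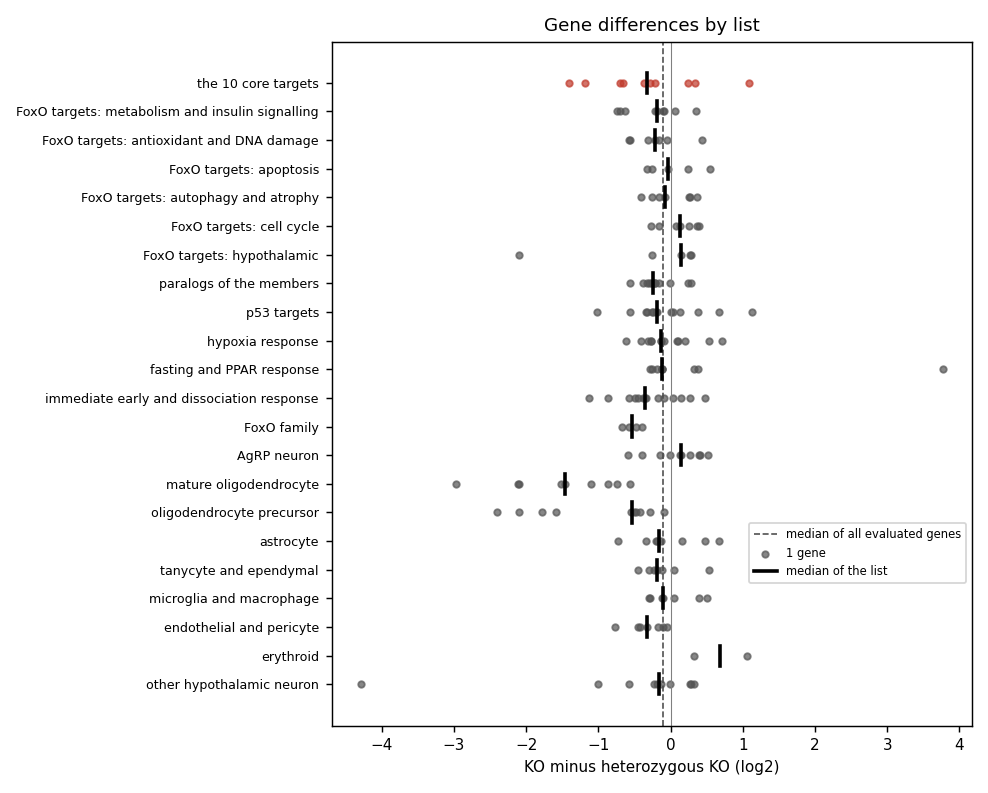
Gene differences (KO minus heterozygous KO, log2, horizontal axis) of the 10 core targets (red) and of the evaluated genes of each list (grey), with the list median as a black bar and the median of all evaluated genes, -0.11, as a dashed line. The 10 genes spread on both sides of the line, with their median at -0.32, while all 9 mature oligodendrocyte markers lie to its left, with a median of -1.46.

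The sorted cells were checked against markers. Agrp and Npy, which define AgRP neurons, were bright on both arrays. Their levels were 12.44 and 12.19 on the KO array against 11.97 and 12.31 on the heterozygous array. The difference was 0.27 for Agrp (6 of 7 probe sets higher). For Npy it was 0.14 (4 of 6 higher), although the Npy level was the lower one on the KO array. The list of 10 AgRP neuron genes had a median of 0.14 with none called, Mc3r highest at 0.52 and Ghsr lowest at -0.60. Markers of oligodendrocytes were lower on the KO array beside Cdkn1a and Bnip3. All 9 evaluated mature oligodendrocyte markers were below 0 with 6 called lower (median -1.46, led by Ugt8a at -2.98, Mag at -2.12, Cnp at -2.10 and Trf at -1.52), and their summed linear signal was 1705 on the KO array against 4604 on the heterozygous array. All 10 precursor markers were below 0 with 4 called lower (median -0.53; Pdgfra -2.41, Gpr17 -2.10, Enpp6 -1.78, Lhfpl3 -1.59), with a summed linear signal of 1376 on the KO array against 3112 on the heterozygous array. RMA values have no zero, and no evaluated marker of either list had a level below the floor on either array. Used probe sets had to reach the floor in their mean, so this cannot show that oligodendrocyte RNA was present on both arrays. The part of oligodendrocyte RNA in the values of Cdkn1a, Bnip3, Sesn1 and Bcl6 was not tested.

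The other marker lists were read in the same way. Medians were -0.16 for 8 astrocyte genes (Gfap 0.66, Slc1a3 -0.73), -0.19 for 7 tanycyte and ependymal genes (Tmem212 0.53, Vim -0.46) and -0.11 for 7 microglia and macrophage genes (Aif1 0.50, Trem2 -0.30). Vessel genes were all below 0 (7 of 7 evaluated, Pecam1 -0.05, Cdh5 -0.77), and their median of -0.33 was close to the -0.32 of the 10 FoxO targets. Of 2 evaluated erythroid genes (median 0.69), Hbb-b1 was called higher at 1.05. Of 10 evaluated genes of other hypothalamic neurons, Slc17a6 at -4.29 and Oxt at -1.01 were called lower, with a list median of -0.16. The KO level of Slc17a6, 5.40, lay below the floor, against 9.11 on the heterozygous array. Its used probe sets below the floor on the KO array passed through their heterozygous value, so they had to be lower. Immediate early and dissociation response genes, which tissue handling induces, had a median of -0.35 over 14 genes with Egr3 called lower at -1.13, close to the median of the 10 FoxO targets. Whether any of these moved the values of the 10 genes was not tested.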

How the data were processed

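Gene expression in FACS-sorted AgRP neurons was read on 2 exon-level microarrays, 1 per genotype, each assigned by its sample label. The deposited values are 1 number per probe set and array, on a scale that their range shows to be log2. They were made, per the submitters' processing notes, with RMA (background correction, quantile normalisation and probe summary) and Partek, without versions. Build, probe positions and the number of mice per array are not stated in the sources used here.

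A probe set counted as a gene's only where the platform annotation gave it 1 symbol, which held for 318760 of 1235936 probe sets. Those with a mean over both arrays at or above the median of all probe sets (5.86) were used. A gene's difference is the median over its used probe sets, at least 3 being required, which left 16639 genes; its level is the median on each array, so difference and gap between levels can differ. A gene was called where the difference was at least 2-fold and at least 75% of its used probe sets shared its direction. Single arrays allow no test, and no p is given. The SD printed is over probe sets. The summary was tested on simulated data. Differences were shuffled among probe sets of like level, and the same change was added to every probe set of a chosen gene. That setting does not imitate a gene whose probe sets change unequally or pass the floor through 1 array.

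The 10 genes and the gene lists beside them were chosen with earlier results of these data known. Named are the 10 genes, Foxo1, and from each list up to 4 called genes or else its highest and lowest; all evaluated paralogs are given as well. Promoter windows are from RefSeq (GRCm38.p6). Alternatives concerned the floor, the probe set summary and number, centring, quantile normalisation, annotation, agreement and fold. Python 3.11.15, numpy 2.4.6, pandas 2.3.3 and matplotlib 3.10.9 were used.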

Additional observations from a re-analysis of the deposited data

How the results depend on the processing

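No paired analysis was possible because each genotype has 1 array. Over the alternatives that evaluated them, all 10 genes kept the sign of their difference. For 2 of them that sign rested on values near 0: Sesn3 at -0.004 with the mean over probe sets and Pdk4 at 0.02 with no floor. Cdkn1a was called lower in 9 of 9 alternatives (-1.52 to -1.30) and Bnip3 in 8 of 9. These counts include the alternatives on probe set number and on annotation. Those left the probe sets of each evaluated gene of the 10 unchanged, so they could not change a sign or a call. Quantile normalisation was repeated on values that RMA had already normalised, so it could change little (Cdkn1a -1.39, Bnip3 -1.18). With no floor 1 of the 10 genes was called lower, since Bnip3 stood at -0.99, beside 126 lower among all genes evaluated there. With the floor raised to the 75th percentile, 7 genes were evaluated, 2 were called lower and 1 was called higher. The higher one was Txnip at 1.22, through probe sets below that floor on the heterozygous array. Among all genes evaluated at that floor, 195 were called lower and 179 higher. Of the probe sets of the 10 genes, 13 were then at least 2-fold lower and 5 higher. The share over all probe sets was not counted at that floor. With no rule on agreement 1 of the 10 genes was higher (Pdk4), beside 236 of all 16639 evaluated genes. At 1.5-fold, 3 of the 10 genes were called lower and 0 higher. Among all 16639 evaluated genes, 815 were then lower and 545 higher. By probe set, 32 of the 10 genes were lower and 17 higher at 1.5-fold. The share over all probe sets was not counted at that threshold. With at least 1 probe set per gene, 329 of all genes were lower and 338 higher, since more genes were evaluated. Pdk4 ranged from 0.02 to 1.32 and Txnip from 0.10 to 1.22. Removing the most deviating probe set of each gene was chosen after the data were seen; 2 genes were then called lower and 7 were below 0. Dim probe sets limit Pdk4 most, with 7 of 13 below the floor, then Bcl6, with 3 of 10.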
